A study of Homo sapiens with 12 samples.

Results

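KYSE510 is a cell line from a human esophageal squamous cell carcinoma, and the data described here are its time course under THZ1, a covalent inhibitor of the transcription kinase CDK7 that also binds CDK12 and CDK13 at higher doses. The 4 libraries of KYSE510 at 50 nM THZ1 for 2, 4, 6 and 12 h were taken by their labels from 12 RNA-seq libraries of KYSE510 and TE7, another human esophageal cancer line. Each time is 1 library of polyadenylated RNA, and expression is given in FPKM, fragments scaled by transcript length and library size. The TE7 libraries at the same dose and hours served for comparison, and 1 library of each line at 200 nM THZ1 for 6 h gave a higher dose. The culture medium was RPMI-1640 for KYSE510 and DMEM for TE7. The KYSE510 DMSO library was left out, and no untreated library is labelled 2, 4 or 6 h. Time under the drug, handling and time in culture therefore cannot be told apart, and every change below is against the 2 h library, not against untreated cells.

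CDK7 is the kinase of the general transcription factor TFIIH. It phosphorylates the tail of RNA polymerase II and activates other transcription kinases, among them CDK9. After a block of transcription each mRNA is lost at its own rate of decay. The mRNAs of immediate-early transcription factors and of their feedback inhibitors are known to be short-lived, while those of ribosomal proteins, keratins and metabolic enzymes are known to last for many hours.

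FPKM summed to between 451155 and 535976 in the 4 libraries, and 13224, 12784, 12442 and 11685 genes reached 1 FPKM at 2, 4, 6 and 12 h. The upper 95% bound that the authors gave with each value exceeded it by 7.31% to 8.76% in the median gene, which leaves out variation between cultures. Totals of fragments are unknown. The squamous markers KRT5, KRT13 and TP63 were present in every library, whereas 1 of the leukocyte markers (CD68), 1 of the fibroblast markers (COL1A1) and 0 of the endothelial markers reached the level needed for a test. Across 12685 genes the 4 libraries correlated with each other at r = 0.921 to 0.986, and with the KYSE510 DMSO library at 0.81 to 0.853. The 6 h library held 47722 FPKM of RNU6-1306P, a single U6 snRNA copy that was listed at 0 in the others, and its small RNA total was 49700 FPKM, against 1647 to 4433 FPKM in the others.

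For the test over time, a straight line over hours was fitted to log2(FPKM + 1) of each of the 12685 genes with a mean of at least 1 FPKM (limma, two-sided, Benjamini-Hochberg adjustment over all genes, threshold 0.05). There are no replicates at any time, so the p-values measure scatter about the line and not variation between cultures. That scatter is partly borrowed from other genes of similar level, with 3.74 prior against 2 residual degrees of freedom. Values given per hour below are this slope on the log2 scale ± its standard error, with the limma adjusted p. By this test 1343 genes (10.6%) rose and 5698 (44.9%) fell, 7041 (55.5%) in all. FPKM are shares of a library, and the median gene was 0.42 lower at 12 h than at 2 h on the log2 scale. With libraries rescaled so that the median gene stayed level (median-of-ratios scaling) 3650 genes rose and 3446 fell, with upper-quartile scaling 2972 rose and 4096 fell, and with equal sums of FPKM 707 rose and 6593 fell. The counts also leaned on single libraries: without the 12 h library 723 genes rose (5.7%) and 3013 fell (23.8%), and without the 4 h library 860 rose. The fit without the 12 h library gives the slopes over 2 to 6 h below. It has 1 residual degree of freedom, so its p-values lean on scatter borrowed from other genes. Passing it does not replace the test over all times for genes that missed that test.

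The median gene moved by -0.055 from 2 to 4 h, by -0.053 from 4 to 6 h and by -0.28 over the 6 hours from 6 to 12 h on the log2 scale. Per hour these were -0.028, -0.027 and -0.046. Of 9400 genes with at least 5 FPKM at 2 h, 125 were at or under 50% of that level at 4 h, 609 at 6 h and 2723 at 12 h. By 12 h 78 of them had lost at least 90% of it and 101 had at least doubled.

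Shapes over time were assigned by fixed steps and carry no test. A range of at least 1 on the log2 scale over the 4 libraries was reached by 3512 genes (27.7%). Among these 192 were early falls, with most of the net change between 2 and 4 h, 838 were middle falls and 2039 were late falls, with most of it between 6 and 12 h. The last interval spans 6 of the 10 hours, so a straight decline also counts as late; 380 of the 2039 late falls had a downward bend by the test below. Rises were fewer, with 23 early, 39 middle and 98 late. The balance depends on scaling. Falling and rising shapes numbered 3069 and 160 with FPKM as deposited, and 3833 and 115 with equal sums of FPKM. They numbered 1655 and 893 with median-of-ratios scaling, and 2032 and 496 with upper-quartile scaling. Another 40 genes peaked and 53 had a trough at 4 or 6 h, at least 0.5 beyond both ends. The median falling gene had gone 19.95% of its net way by 4 h and 40.1% by 6 h, and the median rising gene 19.8% and 42.8%. A squared term in hours passed its test in 2091 genes (16.5%), with an upward bend in 863 (6.8%) and a downward bend in 1228 (9.68%). This test has 1 residual degree of freedom, against 11.3 prior ones borrowed from other genes. It depends on the processing: 0 genes passed it with no filter on low values, 1009 with variances that do not follow the mean and 1174 with median-of-ratios scaling.

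**Figure D1:**
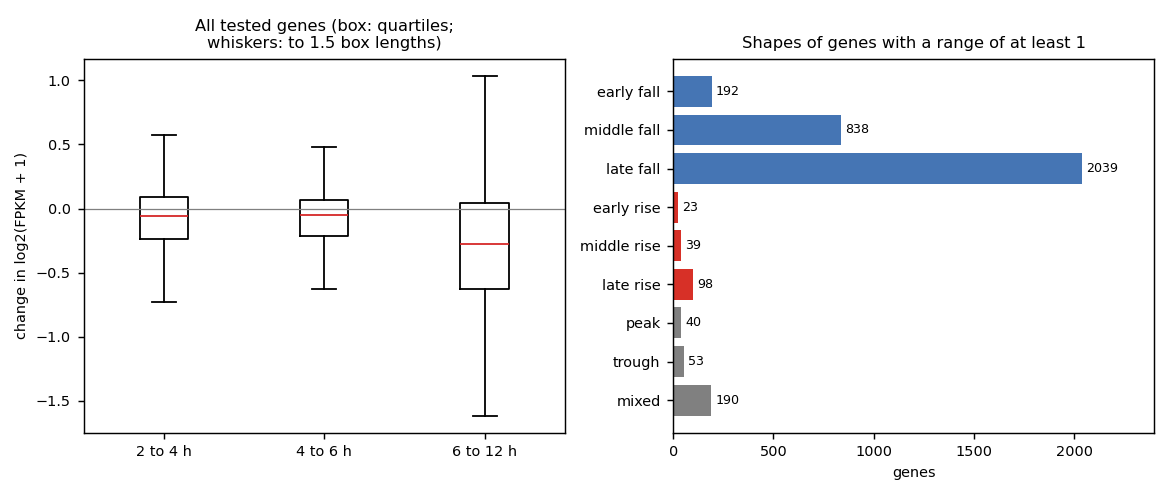
Left, change in log2(FPKM + 1) of all 12685 tested genes over each interval; the line is the median, the box the quartiles and the whiskers reach 1.5 box lengths. Right, number of genes of each shape among those with a range of at least 1, with FPKM as deposited. Late falls (2039) outnumber all other shapes, and rises total 160.

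Immediate-early factors, transcription factors and co-regulators that cells switch on within minutes of a stimulus, changed mostly in the first interval, with median steps of -1.15, -0.40 and -0.20 over the 3 intervals. Of 27 tested, 13 fell and 0 rose over the 4 libraries, a share near that of all genes, but their median change was -2.15 against -0.42 for all genes, and 9 of them were early falls. Over 2 to 6 h alone 22 of the 27 fell, against 23.8% of all genes. An upward bend over time passed its test in 20 of them, against 6.8% of all genes, and a downward bend in 1. NR4A1 (ENSG00000123358; chromosome 12, 52416616 to 52453291 on hg19), an orphan nuclear receptor, had 134, 17.9, 7.55 and 3.14 FPKM at 2, 4, 6 and 12 h. Each library was lower than the one before, and the 12 h level was 42.7-fold below the 2 h level (-0.44 ± 0.10 per hour, adjusted p = 0.0152). Its fall was steepest at the start and flattened later (curvature adjusted p = 9.22e-06).

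EGR3, a zinc finger factor, had 31.6, 4.19, 1.67 and 0.421 FPKM, and KLF2, a Kruppel-like factor, had 17.3, 2.76, 1.74 and 0.977 FPKM. The stress-induced bZIP factor ATF3 had 47.6, 15.2, 7.83 and 4.59 FPKM (-0.28 ± 0.061 per hour, adjusted p = 0.012). In all of these most of the net loss on the log2 scale had occurred by 4 h. The slopes of EGR3 and KLF2 passed the test (adjusted p = 0.0179 and 0.0418) but missed it with a pseudocount of 5 (0.0507 and 0.0729). With robust estimation of the variance NR4A1, EGR3 and KLF2 missed it (0.0855, 0.0688 and 0.104). With no filter on low values NR4A1, EGR3, KLF2 and ATF3 missed it (0.117, 0.128, 0.198 and 0.103). KLF2 also missed it with median-of-ratios scaling (0.067), with upper-quartile scaling (0.0621) and with no mean trend of the variance (0.0552). The AP-1 subunit FOSB had 45.8, 12, 5.23 and 5.78 FPKM, with no further drop after 6 h. Its slope over all times missed the threshold (adjusted p = 0.0651), and its slope over 2 to 6 h passed (adjusted p = 0.000355).

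Other AP-1 and immediate-early genes were lower at 12 h than at 6 h. FOSL1 (ENSG00000175592; chromosome 11, 65659520 to 65668044 on hg19), which encodes FRA1, had 157, 100.2, 57 and 9.95 FPKM (-0.39 ± 0.012 per hour, adjusted p = 0.000927). At 12 h it stood 15.7-fold below 2 h, and neither its curvature nor that of FOSL2 passed the test (adjusted p = 0.287 and 0.838). FOSL2 had 38.1, 27.1, 19.4 and 6.28 FPKM (-0.24 ± 0.012 per hour, adjusted p = 0.000927). JUND lost little up to 6 h and most afterwards, at 59.5, 48.5, 45.8 and 10.0 FPKM (-0.25 ± 0.03 per hour, adjusted p = 0.00186), with a downward bend (curvature adjusted p = 0.00179). The pluripotency and squamous differentiation factor KLF4 had 72.2, 56.3, 42.6 and 15.8 FPKM (adjusted p = 0.000927), while the small MAF factor MAFF, at 27.9, 9.93, 4.75 and 1.73 FPKM, was a middle fall (adjusted p = 0.00391).

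**Figure D2:**
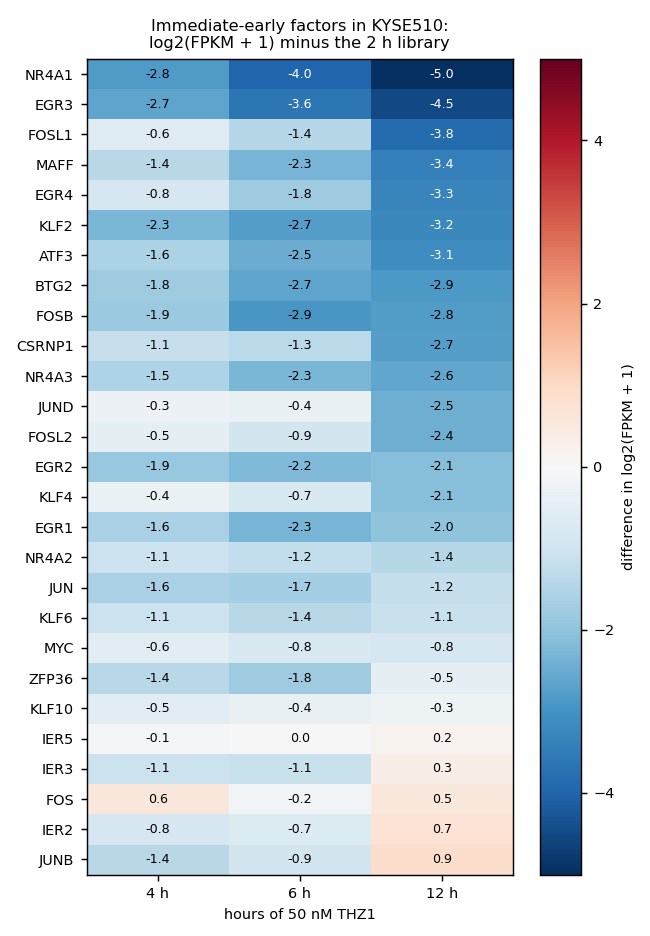
Difference in log2(FPKM + 1) of each of the 27 tested immediate-early factors in KYSE510 at 4, 6 and 12 h from the 2 h library, 1 library a time, ordered by the 12 h value. NR4A1 and EGR3 at the top were more than 4 log2 units lower at 12 h, and JUNB at the bottom was 0.89 higher after having been lower at 4 and 6 h.

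Another set of immediate-early genes was lower at 4 and 6 h than at 2 h and higher again at 12 h. JUNB, an AP-1 subunit, had 136, 51.5, 71.6 and 252 FPKM, so that the 12 h library was the highest and the 4 h library the lowest. IER3, an apoptosis regulator, had 358, 171, 166 and 448 FPKM, and IER2, a nuclear immediate-early protein, had 67.4, 37.1, 42.1 and 112 FPKM. Both were lower at 4 and 6 h than at either end. ZFP36, which encodes the mRNA decay factor tristetraprolin, had 21.3, 7.43, 5.5 and 14.9 FPKM, and JUN had 16.7, 4.71, 4.5 and 6.78 FPKM with a partial return. Their slopes over all times missed the threshold (adjusted p = 0.157 for JUNB, 0.371 for IER3, 0.134 for IER2, 0.984 for ZFP36 and 0.442 for JUN), while the upward bend passed in all 5 (adjusted p = 4.83e-06 for ZFP36 to 0.000663 for JUNB). The 5 were grouped by this course in the same libraries, so the bend is no separate support for it. Of all 53 troughs 38 had such a bend. Over 2 to 6 h ZFP36, IER3 and JUN fell (adjusted p = 0.00232, 0.0122 and 0.0115), whereas JUNB and IER2 missed the threshold (0.121 and 0.0646). The return rests on the 12 h library alone. In TE7 JUNB had 186, 114, 116 and 239 FPKM, also a trough by the same rule, and IER2 had 32.4, 24.6, 25 and 38.3 FPKM, with a range under 1 on the log2 scale. IER3 likewise had a range under 1 in TE7, ZFP36 was an early fall there and JUN had none of the named shapes. FOS took neither course, at 40.5, 60.3, 36.3 and 59 FPKM (adjusted p = 0.383).

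The upstream sequences of 4 of these genes are shown because their time courses differ while some of their promoter elements are shared. They are the 150 bases before the RefSeq gene start (GRCh38.p14), 5′ to 3′ on the gene's strand, with capitals for TGACGT on either strand (the core of the cAMP response element), for the CArG box bound by serum response factor, and for TATAAA.
FOSB, chr19:45467846-45467995, plus strand: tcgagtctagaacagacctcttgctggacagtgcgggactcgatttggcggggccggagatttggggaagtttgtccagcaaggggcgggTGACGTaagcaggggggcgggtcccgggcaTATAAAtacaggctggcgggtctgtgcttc
FOS, chr14:75278678-75278827, plus strand: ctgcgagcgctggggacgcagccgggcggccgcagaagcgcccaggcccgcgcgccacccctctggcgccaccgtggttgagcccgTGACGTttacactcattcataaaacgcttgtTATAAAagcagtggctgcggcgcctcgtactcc
EGR1, chr5:138465329-138465478, plus strand: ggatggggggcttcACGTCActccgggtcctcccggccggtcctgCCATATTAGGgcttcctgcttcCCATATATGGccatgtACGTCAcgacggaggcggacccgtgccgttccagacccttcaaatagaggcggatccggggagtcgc
JUNB, chr19:12791336-12791485, plus strand: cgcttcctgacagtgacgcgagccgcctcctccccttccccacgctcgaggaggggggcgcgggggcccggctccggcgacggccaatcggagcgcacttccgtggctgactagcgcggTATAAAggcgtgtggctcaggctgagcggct
FOSB, an early fall, and FOS, which had no call, both hold 1 TGACGT match and 1 TATAAA match in this window. EGR1, an early growth response factor at 141, 45, 27.4 and 34.4 FPKM (adjusted p = 0.127 over all times and 0.000686 over 2 to 6 h), holds 2 CArG boxes and 2 TGACGT matches, and JUNB holds 1 TATAAA match. Among the 250 bases upstream of the start, searched on both strands, TGACGT was present in 8 of 21 immediate-early factors with a sequence (38.1%) and in 20 of 121 early falls (16.5%). It was present in 10.1% of middle falls, 11.4% of late falls, 14.9% of the 74 rising shapes with a sequence and 10.7% of the 8778 tested genes with a sequence. TATAAA was found in 14.3% of the immediate-early factors, 9.09% of early falls, 4.97% of middle falls, 3.88% of late falls, 8.11% of rising shapes and 4.97% of the tested genes. The CArG box was in 4.76% of the immediate-early factors (1 gene), 0.826% of early falls and 0.9% of the tested genes. The full 8-base element TGACGTCA, which contains TGACGT, was in 9.52% of the immediate-early factors, 5.79% of early falls, 3.21% of late falls and 3.05% of the tested genes. These matches describe letters in a window and no more.

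The feedback inhibitors and ligands of the EGF receptor and MAPK pathway mostly passed the test downward. Of 20 tested, 15 fell and 0 rose (11 and 0 with median-of-ratios scaling), with a median change of -1.28 against -0.42 for all genes. DUSP6, a phosphatase of ERK, had 10.2, 2.58, 1.49 and 0.842 FPKM (-0.22 ± 0.063 per hour, adjusted p = 0.0282), and lost most of its level by 4 h. Its call was lost with a pseudocount of 5 (adjusted p = 0.0536) and with no filter (0.16). DUSP5, another ERK phosphatase, had 17.6, 6.99, 4.43 and 1.85 FPKM, and the PHLDA1 gene had 27.4, 9.92, 5.77 and 2.76 FPKM. ERRFI1, which inhibits the EGF receptor, had 41.3, 21.7, 14.5 and 6.83 FPKM (-0.23 ± 0.027 per hour, adjusted p = 0.00185), and SPRY2, a Sprouty inhibitor, had 17.2, 7.79, 5.61 and 3.83 FPKM (adjusted p = 0.0145). All 4 libraries were in descending order for each of these. The ligand gene HBEGF had 22, 7.06, 5.93 and 4.64 FPKM (adjusted p = 0.051 over all times and 0.0052 over 2 to 6 h). Of 18 tested NF-kB factors and targets 8 fell and 1 rose, a share near the background, with a median of -1.16, or 4 and 2 with median-of-ratios scaling. Among them the chemokine gene IL8 had 73, 20.5, 9.1 and 10.4 FPKM, with its slope past the threshold over 2 to 6 h (adjusted p = 0.000308) and not over all times (0.0682). NFKB2, a subunit of NF-kB, had 27.7, 22.2, 19.2 and 4.53 FPKM and fell (adjusted p = 0.00125).

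**Figure D3:**
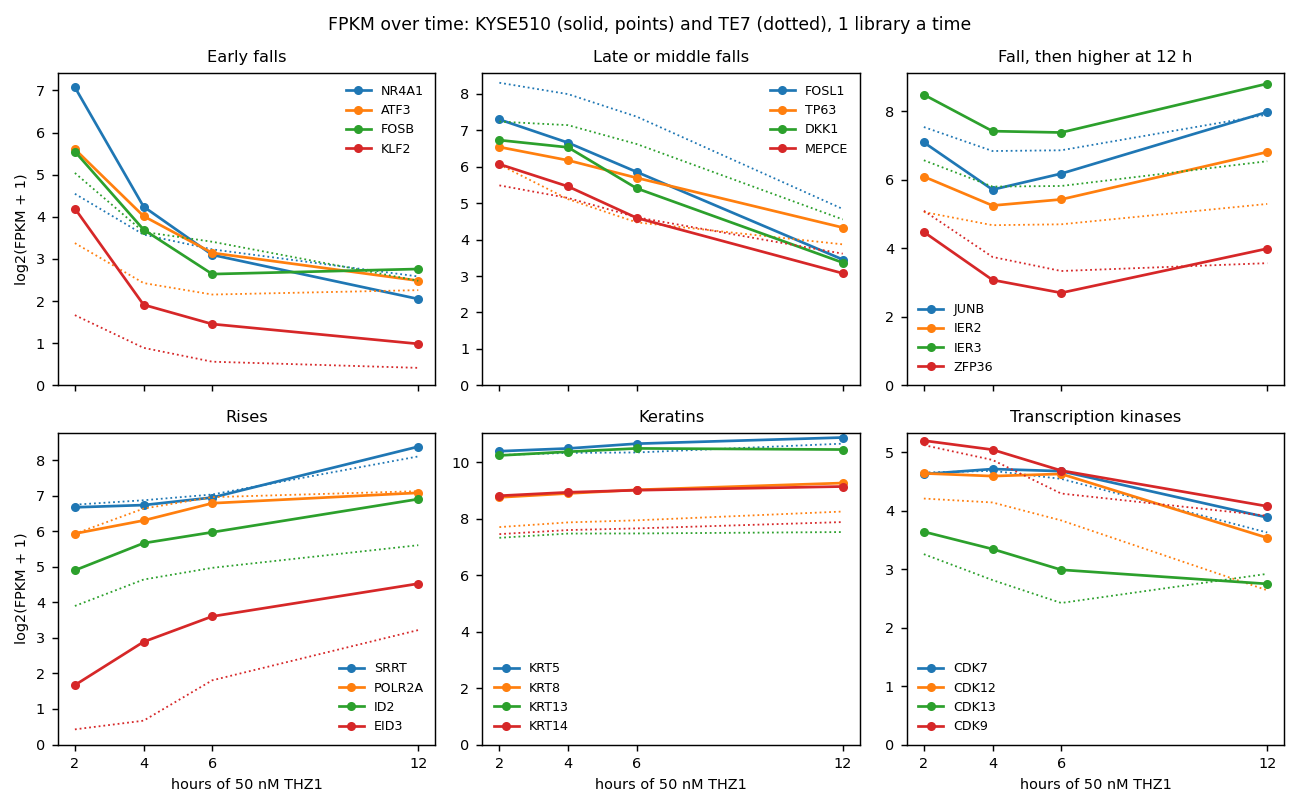
FPKM on a log2(FPKM + 1) scale against hours of 50 nM THZ1 for example genes in KYSE510 (solid lines with points) and TE7 (dotted lines), 1 library a time and no error bars. NR4A1 comes down from 134 FPKM at 2 h with most of the loss by 4 h, FOSL1 declines to 9.95 FPKM at 12 h, JUNB, IER2, IER3 and ZFP36 dip at 4 to 6 h, and KRT8 stays between 432 and 614 FPKM.

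Of the kinases that THZ1 binds, CDK7 and CDK12 changed late and CDK13 declined throughout. CDK7 had 23.7, 25.2, 24.6 and 13.8 FPKM and CDK12, which phosphorylates elongating polymerase, had 23.9, 23.1, 23.7 and 10.6 FPKM, so that the first 3 libraries lay close together and the 12 h library stood below them. Both slopes passed the test (adjusted p = 0.0167 and 0.00808), but rest on the 12 h library: without it the slopes were 0.013 and -0.0024 per hour (adjusted p = 0.716 and 0.949). CDK13 had 11.5, 9.15, 6.93 and 5.72 FPKM (-0.085 ± 0.019 per hour, adjusted p = 0.0122), a decline already seen over 2 to 6 h (adjusted p = 0.00595). With median-of-ratios scaling neither CDK7 nor CDK13 passed (adjusted p = 0.136 each).

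Of 33 tested transcription kinases, cyclins and elongation factors 17 fell and 5 rose, with a median of -0.62. With median-of-ratios scaling 11 fell and 10 rose, and without the 12 h library 9 fell and 2 rose. MEPCE, the capping enzyme of 7SK RNA, the RNA that holds the elongation factor P-TEFb inactive, had 66.3, 43, 23.2 and 7.43 FPKM (-0.30 ± 0.017 per hour, adjusted p = 0.000927) and changed most. CDK9, the P-TEFb kinase, had 35.7, 31.9, 24.7 and 15.8 FPKM (-0.11 ± 0.012 per hour, adjusted p = 0.00153). Its cyclin partner CCNT2 went the other way, at 12.4, 13.7, 15.7 and 25.2 FPKM (0.098 ± 0.012 per hour, adjusted p = 0.00226), as did the elongation factor SUPT5H, at 46.8, 50.3, 59.2 and 82.9 FPKM (0.083 ± 0.011 per hour, adjusted p = 0.00225). Without the 12 h library CCNT2 missed the threshold (adjusted p = 0.0545) and SUPT5H passed (0.0287). BRD2, a reader of acetylated histones, had 207, 269.5, 299.5 and 215 FPKM, highest at 6 h, with a downward bend (curvature adjusted p = 0.00091) and no call for its slope (adjusted p = 0.82).

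Of 12 tested RNA polymerase II subunits 5 rose and 2 fell, with a median of 0.30. With median-of-ratios scaling 10 rose and 1 fell, and without the 12 h library 3 rose and 1 fell. POLR2A (ENSG00000181222; chromosome 17, 7387685 to 7417933 on hg19), the catalytic subunit and the substrate of CDK7, had 60.1, 77.9, 109 and 134 FPKM (0.11 ± 0.02 per hour, adjusted p = 0.00682). Every library was above the one before, the 12 h level was 2.23-fold that of 2 h, and the rise was already called over 2 to 6 h (adjusted p = 0.00107). POLR2D, which belongs to the dissociable stalk of the enzyme, had 21.7, 18.9, 16.1 and 8.49 FPKM and fell (adjusted p = 0.0013). Of 29 tested Mediator subunits 14 fell and 4 rose, close to the background, or 9 and 9 with median-of-ratios scaling and 8 and 1 without the 12 h library. MED7 had 7.97, 5.5, 2.63 and 0.857 FPKM (-0.23 ± 0.024 per hour, adjusted p = 0.00154), whereas MED13, of the kinase module, had 13.7, 19.2, 25.1 and 38.2 FPKM (0.14 ± 0.017 per hour, adjusted p = 0.00213).

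In the whole list of 31 squamous genes 7 rose and 8 fell, and the median change was 0.0055. With median-of-ratios scaling 19 rose and 5 fell, with equal sums of FPKM 1 rose and 10 fell, and without the 12 h library 0 rose and 5 fell. TP63 (ENSG00000073282; chromosome 3, 189349205 to 189615068 on hg19), the master regulator of squamous epithelium, had 92.2, 71.4, 50.9 and 19.1 FPKM (-0.22 ± 0.011 per hour, adjusted p = 0.000927). SOX2, the lineage factor amplified in many squamous carcinomas, had 102, 42.7, 23.2 and 15.3 FPKM (-0.24 ± 0.05 per hour, adjusted p = 0.00971). FOXE1, a forkhead factor, had 86.1, 53.1, 28.4 and 8.43 FPKM (-0.32 ± 0.017 per hour, adjusted p = 0.000927). Each of the 3 descended from library to library, and at 12 h they were 4.82-, 6.66- and 10.2-fold below 2 h. The epithelial factor GRHL2, at 16, 9.9, 7.51 and 2.92 FPKM, fell as well (adjusted p = 0.00103), while KLF5, at 233, 219, 193 and 213 FPKM, had no call (adjusted p = 0.514).

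Of the 14 tested keratins of this list 6 rose, 2 fell (KRT15 and KRT19) and 6 had no call. KRT5, a basal keratin, had 1343, 1437, 1615 and 1879 FPKM (0.048 ± 0.0082 per hour, adjusted p = 0.0051), and KRT8 had 432, 475, 519.7 and 614 FPKM (0.049 ± 0.0086 per hour, adjusted p = 0.00571). KRT13, the keratin of esophageal mucosa, had 1209, 1325, 1438 and 1398 FPKM and no call (adjusted p = 0.204). The rises of KRT5 and KRT8 missed the threshold without the 12 h library (adjusted p = 0.216 and 0.108) and with equal sums of FPKM (0.124 and 0.0662).

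The study names PAK4, RUNX1, DNAJB1, SREBF2 and YAP1 as super-enhancer genes of these lines, a choice made on these samples that is not independent evidence of a direction. Of the 5, 4 fell and 0 rose, with a median change of -1.19, or 3 and 1 with median-of-ratios scaling. The kinase PAK4 had 27.4, 26.8, 25.9 and 11.4 FPKM (-0.13 ± 0.021 per hour, adjusted p = 0.00517), close together up to 6 h and lower at 12 h, and without the 12 h library it had no call (adjusted p = 0.534). RUNX1, a transcription factor, had 18.4, 17.3, 11.7 and 5.88 FPKM (-0.16 ± 0.016 per hour, adjusted p = 0.00134). The co-chaperone DNAJB1 had 108, 87.9, 56 and 25.4 FPKM (-0.21 ± 0.013 per hour, adjusted p = 0.000969), and YAP1, the Hippo pathway co-activator, had 46.5, 42.3, 39.5 and 32.2 FPKM (-0.051 ± 0.011 per hour, adjusted p = 0.0105). The call for YAP1 was lost with median-of-ratios scaling (adjusted p = 0.879), with upper-quartile scaling (0.199), without the 4 h library (0.0597) and without the 12 h library (0.0799). SREBF2, the regulator of cholesterol genes, stayed within a narrow range, at 18.6, 18.1, 19.5 and 17 FPKM (adjusted p = 0.468), and with median-of-ratios scaling it passed as a rise (0.0378).

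Of 24 tested BCL2 family and apoptosis genes 19 fell and 1 rose, with a median of -0.99, and of 24 p53 targets 17 fell and 1 rose, with a median of -0.95. With median-of-ratios scaling 14 apoptosis genes fell and 4 rose, and 11 p53 targets fell and 4 rose; without the 12 h library 10 apoptosis genes fell and 2 rose. MCL1, a short-lived anti-apoptotic protein, had 195, 110.0, 68.6 and 46.3 FPKM (-0.19 ± 0.033 per hour, adjusted p = 0.00542), descending in each interval. BCL2L2, another anti-apoptotic member, had 42.8, 28.7, 21.8 and 10.2 FPKM (adjusted p = 0.00098), and the pro-apoptotic gene BIK had 25.9, 21.9, 14.3 and 3.1 FPKM (-0.28 ± 0.02 per hour, adjusted p = 0.000969). BCL2L11, which encodes the pro-apoptotic BIM, had 5.89, 9.05, 10.4 and 11.4 FPKM, higher in each library than in the one before and past the threshold over 2 to 6 h (adjusted p = 0.00849) but not over all times (0.0502). CDKN1A, the p21 inhibitor of cyclin-dependent kinases, had 66.6, 41.7, 28.5 and 8.83 FPKM (-0.27 ± 0.012 per hour, adjusted p = 0.000927). MDM2, which degrades p53, had 37, 30.4, 21 and 11.9 FPKM (adjusted p = 0.00115). GADD45B was the p53 target that rose, at 11, 12.7, 17.9 and 33 FPKM (0.15 ± 0.014 per hour, adjusted p = 0.00111).

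Genes of homologous recombination and the Fanconi pathway, which repair DNA breaks and crosslinks, had the highest share of falls among the lists. Of 34 tested, 29 fell and 0 rose, with a median of -1.21, and 22 still fell with median-of-ratios scaling. BRCA1 had 16.7, 11.7, 8.93 and 2.54 FPKM (-0.23 ± 0.014 per hour, adjusted p = 0.000927), FANCE had 9.3, 6.75, 4.39 and 0.881 FPKM (-0.25 ± 0.015 per hour, adjusted p = 0.000927) and XRCC2, a recombination gene, had 6.34, 3.01, 1.51 and 0.456 FPKM (-0.22 ± 0.033 per hour, adjusted p = 0.00377). By the rule of shapes XRCC2 was a middle fall and BRCA1 and FANCE were late falls. Of 36 tested genes of the G1/S transition and DNA replication 22 fell and 1 rose. POLA2, a subunit of DNA polymerase alpha, had 30.1, 25.8, 19.9 and 3.27 FPKM (-0.30 ± 0.029 per hour, adjusted p = 0.00127), and the cell cycle factor E2F1 had 38.2, 29.1, 20.9 and 7.02 FPKM (-0.23 ± 0.012 per hour, adjusted p = 0.000927). Mitotic genes were nearer to the background, with 19 of 34 fallen and 1 risen; the kinesin KIF11 had 33.8, 31.1, 26.5 and 9.86 FPKM (adjusted p = 0.00162). With median-of-ratios scaling 10 replication genes fell and 6 rose, and 13 mitotic genes fell and 10 rose.

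Of 31 tested genes of cleavage, polyadenylation and the Integrator complex, which end and process transcripts, 19 fell and 4 rose, with a median of -0.76. With median-of-ratios scaling 14 fell and 8 rose, and without the 12 h library 11 fell and 0 rose. The cleavage stimulation factor subunits CSTF3 and CSTF2T had 29.3, 18.2, 10.7 and 6.34 FPKM and 11.6, 7.81, 4.87 and 1.33 FPKM (adjusted p = 0.00304 and 0.00094), and the Integrator subunit INTS3 had 20.2, 16.9, 13.2 and 4.43 FPKM (-0.20 ± 0.016 per hour, adjusted p = 0.00099). Of 34 tested splicing factors and kinases 11 fell and 8 rose. TRA2B, a splicing activator, had 271, 266, 352 and 611 FPKM (0.13 ± 0.014 per hour, adjusted p = 0.00164), highest at 12 h, and missed the threshold without that library (adjusted p = 0.0719). With median-of-ratios scaling 17 splicing factors rose and 6 fell.

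Of 21 tested snoRNA host genes and abundant noncoding RNAs 11 fell and 5 rose, or 7 and 8 with median-of-ratios scaling. NEAT1, the scaffold of paraspeckles, had 269, 224, 114 and 49.2 FPKM (-0.25 ± 0.021 per hour, adjusted p = 0.00106). The snoRNA host SNHG12 had 42.7, 24.4, 13.1 and 6.66 FPKM (-0.24 ± 0.031 per hour, adjusted p = 0.00232), whereas SNHG15 had 67.5, 74.8, 86.4 and 159 FPKM (0.13 ± 0.012 per hour, adjusted p = 0.00116) and SNHG9 6.6, 7.52, 12.4 and 30.6 FPKM (0.21 ± 0.017 per hour, adjusted p = 0.00099). Of 114 tested zinc finger genes of chromosome 19, 61 fell and 4 rose, or 33 and 9 with median-of-ratios scaling and 63 and 1 without the 12 h library. Their median change over 2 to 4 h was -0.33, against -0.055 for all genes, and 11 were early, 24 middle and 11 late falls. ZNF561 had 22.4, 9.05, 5.49 and 3.04 FPKM (-0.23 ± 0.044 per hour, adjusted p = 0.0079) and ZNF274, a repressor that binds other zinc finger genes, 10.8, 6.08, 3.04 and 1.4 FPKM (-0.22 ± 0.032 per hour, adjusted p = 0.00331). The family shares similar exons, and the authors' counting may split reads between members.

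Several of the largest falls lay outside these groups. ZBED5, a gene derived from a transposase, had 29.9, 12.2, 4.64 and 0.814 FPKM (-0.39 ± 0.04 per hour, adjusted p = 0.00132), with each library well below the one before. HAS3 (ENSG00000103044; chromosome 16, 69139467 to 69152622 on hg19), a hyaluronan synthase, had 277, 139.6, 93.1 and 25.6 FPKM (-0.33 ± 0.017 per hour, adjusted p = 0.000927). DKK1, a secreted Wnt antagonist, changed little by 4 h and strongly afterwards, at 105, 91.7, 41.5 and 9.33 FPKM (-0.35 ± 0.024 per hour, adjusted p = 0.000969). RBM23, an RNA-binding protein gene, had 74.1, 58.2, 43.7 and 7.87 FPKM, a late fall (adjusted p = 0.00099).

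Among the rises was SRRT (ENSG00000087087; chromosome 7, 100472733 to 100486285 on hg19), which encodes the cap-binding partner ARS2. It had 101, 106, 122 and 332 FPKM (0.18 ± 0.021 per hour, adjusted p = 0.0019), with the first 3 libraries close together and the 12 h library 3.29-fold above 2 h. Without the 12 h library its slope missed the threshold (adjusted p = 0.0599). ID2, an inhibitor of bHLH factors, was higher at each time than at the one before, at 28.9, 49.7, 61.7 and 119 FPKM (0.19 ± 0.02 per hour, adjusted p = 0.00151). EID3, a gene of the SMC5/6 complex, had 2.19, 6.4, 11.2 and 22 FPKM (0.26 ± 0.041 per hour, adjusted p = 0.00415), IER5L had 5.87, 8.02, 15.4 and 37.9 FPKM (0.25 ± 0.019 per hour, adjusted p = 0.00098) and the arrestin-domain gene ARRDC3 had 2.59, 4.53, 5.56 and 12.2 FPKM (0.18 ± 0.018 per hour, adjusted p = 0.00128). All of these ascended from library to library and were called over 2 to 6 h too (adjusted p = 0.00154, 0.000594, 0.00153 and 0.00744). NME2, a nucleoside diphosphate kinase gene, rose as well, at 6.69, 9.43, 10.4 and 27.3 FPKM (adjusted p = 0.00111); it overlaps the readthrough gene NME1-NME2, so its reads may be shared.

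The most abundant gene families rose together by small amounts. Of 84 tested cytosolic ribosomal protein genes 72 rose and 2 fell, with a median of 0.60. RPL35 had 1117, 1308, 1432 and 2086 FPKM (0.088 ± 0.0078 per hour, adjusted p = 0.00111) and RPL39 had 393, 494, 484 and 741 FPKM (0.086 ± 0.012 per hour, adjusted p = 0.00267). RPL39L and RPL7L1, which encode relatives of ribosomal proteins, were those that fell. RPL7L1 had 71, 64.8, 62 and 29.6 FPKM (-0.13 ± 0.017 per hour, adjusted p = 0.00254). This count depends on scaling and on 1 library: 30 rose with equal sums of FPKM and 81 with median-of-ratios scaling, and 2 rose without the 12 h library. These genes have many pseudogenes that can share their reads. Of 80 tested nuclear genes of oxidative phosphorylation 56 rose and 5 fell, with a median of 0.50, or 22 and 1 without the 12 h library and 74 and 1 with median-of-ratios scaling. NDUFC2, a complex I subunit, had 105, 116, 150.5 and 213 FPKM (0.10 ± 0.011 per hour, adjusted p = 0.00162) and COX8A, of cytochrome oxidase, had 298, 339, 391 and 550.4 FPKM (0.088 ± 0.0085 per hour, adjusted p = 0.00126). NDUFV3, of complex I, was an exception at 11.4, 9.69, 6.72 and 2.99 FPKM (-0.17 ± 0.015 per hour, adjusted p = 0.00111).

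Proteasome and chaperone genes moved less. Of 31 tested proteasome subunits 14 rose and 2 fell, with a median of 0.31, or 24 and 1 with median-of-ratios scaling. PSMD2 had 574, 629, 748 and 985 FPKM (0.079 ± 0.0088 per hour, adjusted p = 0.00167). The chaperone HSP90AB1 had 793, 898, 977 and 1245 FPKM (0.063 ± 0.0081 per hour, adjusted p = 0.0023), but of 23 heat shock chaperones 8 fell and 4 rose, or 1 and 10 with median-of-ratios scaling. Without the 12 h library PSMD2, HSP90AB1 and GAPDH missed the threshold (adjusted p = 0.0511, 0.12 and 0.211). GAPDH, a glycolytic enzyme often used as a reference gene, had 3393, 4349, 4439 and 5971 FPKM (0.075 ± 0.011 per hour, adjusted p = 0.00324), and it missed the threshold with equal sums of FPKM (adjusted p = 0.0606). Of 12 tested genes of the histone clusters 6 rose and 1 fell, or 8 and 0 with median-of-ratios scaling. HIST1H2BK had 64.5, 76.1, 83.6 and 128 FPKM (0.097 ± 0.01 per hour, adjusted p = 0.00141) and HIST1H1C had 53.2, 60.7, 68.4 and 97.7 FPKM (0.086 ± 0.0099 per hour, adjusted p = 0.0018).

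A downward bend over time was more frequent among ribosome biogenesis genes than among all genes. Of 38 tested, 11 fell and 7 rose (5 and 14 with median-of-ratios scaling), but 18 had a downward bend and 0 an upward one, against 9.68% and 6.8% of all genes. Over 2 to 6 h 9 rose and 2 fell. NPM1, which encodes nucleophosmin, was higher at each time than at the one before, at 1194, 1461, 1644 and 2119 FPKM (0.078 ± 0.01 per hour, adjusted p = 0.00238), as was the snoRNP protein gene NOP56, at 238, 265, 291 and 482 FPKM (0.10 ± 0.01 per hour, adjusted p = 0.00127). Both missed the threshold without the 12 h library (adjusted p = 0.0537 and 0.0616). GNL3, which encodes nucleostemin, had 73, 68.5, 58.7 and 17.7 FPKM (-0.21 ± 0.025 per hour, adjusted p = 0.00192), and UTP3 had 19.3, 16.6, 12.2 and 3.83 FPKM (-0.21 ± 0.017 per hour, adjusted p = 0.00099). The downward bend passed its test in GNL3 (curvature adjusted p = 0.000893). The curvature of NPM1, NOP56 and UTP3 did not pass (adjusted p = 0.432, 0.362 and 0.104).

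Stress and clock genes split by member. In the integrated stress and unfolded protein responses 14 of 28 genes fell and 4 rose, close to the background, or 8 and 8 with median-of-ratios scaling. PPP1R15A, which encodes the phosphatase subunit GADD34, had 49.5, 15.9, 9.41 and 8.11 FPKM (adjusted p = 0.0394), a call lost with median-of-ratios scaling (0.0967), with upper-quartile scaling (0.0802), with no mean trend of the variance (0.0534), with robust estimation (0.0999) and with no filter (0.191). The factor XBP1 had 31, 27.8, 17.7 and 5.04 FPKM (-0.25 ± 0.019 per hour, adjusted p = 0.00098). The endoplasmic reticulum chaperone HSPA5 had 92.6, 113, 121 and 138 FPKM and rose (adjusted p = 0.0183). Of 31 interferon response genes 11 fell and 10 rose, or 7 and 17 with median-of-ratios scaling. ISG15, a ubiquitin-like protein, had 15.2, 21.2, 26.6 and 41.5 FPKM (0.13 ± 0.016 per hour, adjusted p = 0.00185). Of 14 clock genes 9 fell and 2 rose, or 6 and 2 with median-of-ratios scaling. The activator ARNTL had 10.4, 7.9, 7.16 and 1.9 FPKM (-0.20 ± 0.02 per hour, adjusted p = 0.00129) and the repressor PER2 had 13.8, 6.99, 5.46 and 2.87 FPKM (-0.17 ± 0.028 per hour, adjusted p = 0.00443). The repressors CRY1 and CRY2 were those that rose, at 8.94, 11.5, 15 and 22.9 FPKM and 5.49, 6.4, 8.42 and 15.1 FPKM (adjusted p = 0.00188 and 0.00137). The metallothionein MT2A had 48.2, 83.6, 77.8 and 113 FPKM and rose early (adjusted p = 0.0181).

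Of the remaining lists, hypoxia and glycolysis had 9 falls and 4 rises among 30 genes, and mitochondrial ribosomal proteins 29 and 8 among 74. With median-of-ratios scaling both turned to more rises than falls, 12 against 3 and 32 against 12. Of 20 aminoacyl-tRNA synthetases 8 fell and 0 rose, or 3 and 6 with that scaling. Of 28 tested genes of cholesterol synthesis and uptake 7 fell and 2 rose, or 3 and 16 with it. The ID, TGF-beta and BMP feedback genes had 13 falls and 1 rise (ID2) among 23, with a median of -1.15, or 10 and 2 with that scaling. Of 48 long intergenic noncoding RNAs 26 fell and 1 rose, or 17 and 6 with it. Of 16 metabolic stress and ubiquitin regulators 6 fell and 1 rose, or 4 and 2 with it. Several other counts were also smaller without the 12 h library, where 23.8% of all genes fell and 5.7% rose. Then 10 of 36 replication genes, 10 of 34 mitotic genes, 6 of 34 splicing factors and 3 of 23 heat shock chaperones fell. So did 2 of 74 mitochondrial ribosomal proteins, 5 of 30 hypoxia genes, 4 of 31 interferon response genes and 2 of 28 cholesterol genes. Falls also numbered 1 of 20 synthetase genes, 15 of 48 long intergenic noncoding RNAs and 2 of 5 super-enhancer genes, and 9 of 31 proteasome subunits rose. Falls were more frequent without that library among NF-kB factors and targets (11 of 18) and metabolic stress and ubiquitin regulators (8 of 16).

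Direction over time also went with the level at 2 h among genes with at least 2 FPKM there. Of the 291 genes with at least 200 FPKM at 2 h 66.0% rose, against 10.6% of all genes, and of the 4517 genes with 2 to 10 FPKM 53.8% fell. The 1076 genes under 2 FPKM at 2 h broke this order, with 18.5% fallen and 9.39% risen. The filter on the mean can leave out genes of that level that fell far. Shares by level were not tested with other scalings or without the 12 h library. Genes spanning under 5 kb rose in 20.3% of cases, and those over 100 kb in 6.84%. The same groups fell in 37.8% and 45.8%, but genes of 5 to 20 kb fell most often (48.5%), so falls did not follow the order of span. With median-of-ratios scaling genes under 5 kb and over 100 kb rose in 38.2% and 24.2%. They fell in 24.9% and 24.8%, so their difference in falls was lost with that scaling. Their median levels at 2 h were 18.99 and 9.06 FPKM.

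**Figure D4:**
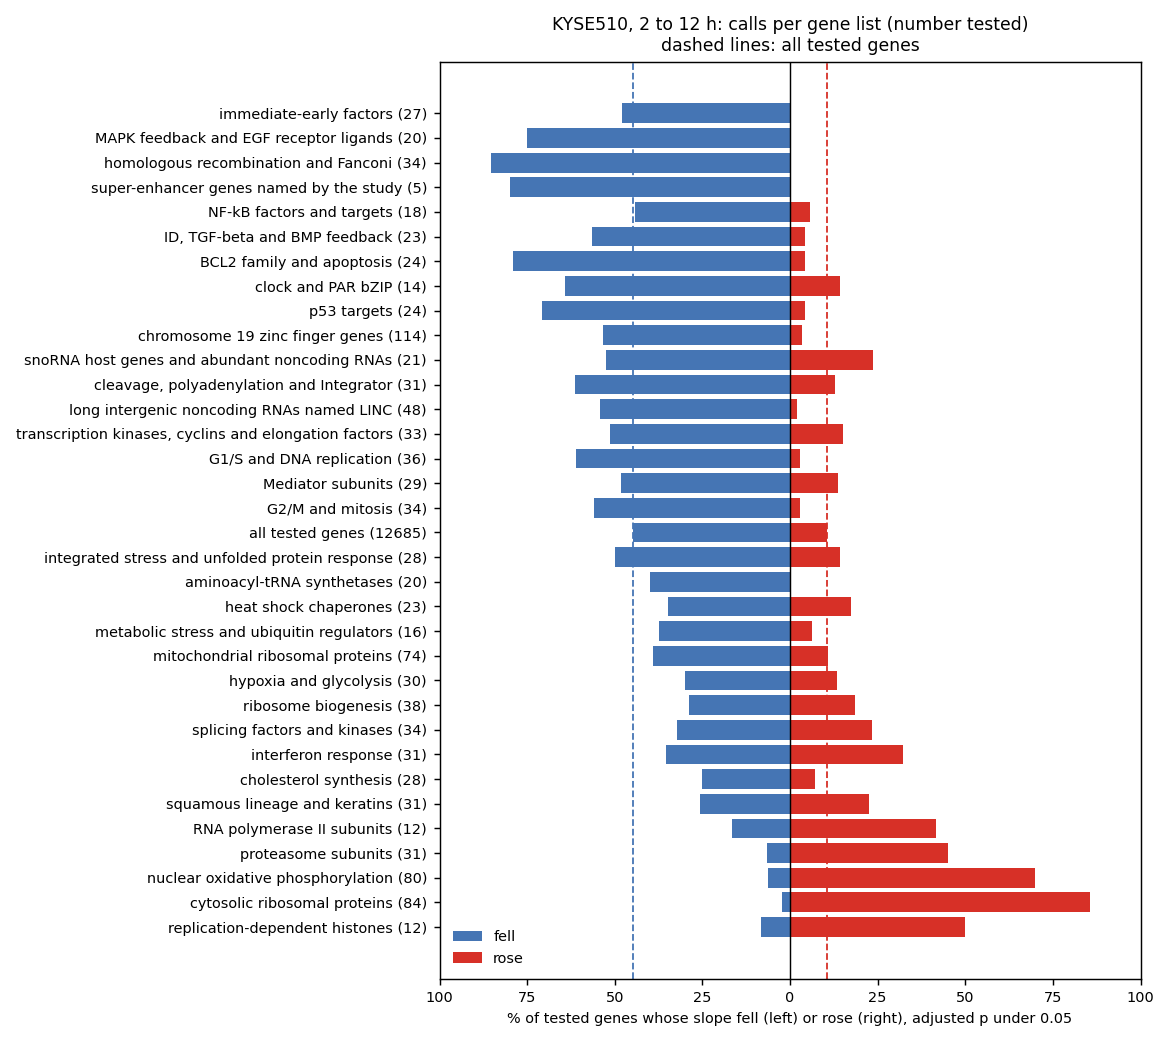
Share of tested genes of each list whose slope over 2 to 12 h fell (left) or rose (right) at an adjusted p under 0.05, with the number tested in brackets, ordered by the median change. Dashed lines mark all 12685 tested genes (44.9% and 10.6%); homologous recombination and Fanconi genes (85.3% fell) and cytosolic ribosomal proteins (72 of 84 rose) lie at the extremes.

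Some rises came with ribosomal RNA. The sum over 5.8S ribosomal RNA genes was 944, 4275, 6439 and 10820 FPKM at 2, 4, 6 and 12 h in KYSE510, and 0 in the TE7 libraries at 50 nM. At 200 nM for 6 h this sum was 41080 FPKM in KYSE510 and 17860 FPKM in TE7. The KYSE510 DMSO library had 452 FPKM. MIR663A, a microRNA host transcript, had 20.1, 89.9, 201 and 276 FPKM (0.32 ± 0.087 per hour, adjusted p = 0.0236) and ANKRD30BL had 2.05, 10.7, 19.1 and 32.8 FPKM (0.30 ± 0.071 per hour, adjusted p = 0.0146). With no filter both missed the threshold (adjusted p = 0.149 and 0.114), and with robust estimation MIR663A did (0.133). In TE7 at 50 nM MIR663A was at 0, 0.0405, 0 and 0.184 FPKM and ANKRD30BL was listed at 0 throughout. The 3 values went up together over time in KYSE510, and the part of ribosomal RNA in the rise of the other 2 was not tested. At 50 nM the summed FPKM of mitochondrially encoded protein genes was 62.5 to 94.1 in the KYSE510 libraries, against 74040 to 192400 in those of TE7; at 200 nM it was 548 in KYSE510, against 199.5 in TE7.

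Set against TE7, few genes passed the test of a difference in slope. Among 11459 genes with a mean of at least 1 FPKM in both lines the slopes correlated at r = 0.78 across genes, which are not independent replicates. Of the 5204 that fell in KYSE510 97.5% had a slope of the same sign in TE7, as did 87.9% of the 1269 that rose and 84.2% of all 11459 genes. By the same rules 62.2% of the 1878 late falls of KYSE510 were late falls in TE7, against 21.9% of all genes, and 32 of the 155 early falls (20.6%) were early falls in TE7, against 1.0% of all genes. The difference of the slopes, KYSE510 minus TE7, was above 0 in 254 genes (2.22%) and below 0 in 137 (1.2%) by limma, with 3212 at an unadjusted p under 0.05. The smallest adjusted p was 0.029. These calls depend on single times: 0 genes passed with log2 hours or without the 4 h or the 6 h libraries, 968 and 307 passed without the 2 h libraries, and 10 and 40 without the 12 h libraries.

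Among the largest differences, slopes below those of TE7 belonged to genes that changed less in TE7 or were low there. LINC00657, the NORAD long noncoding RNA, had 96.9, 65.9, 47.9 and 21.6 FPKM in KYSE510, against 187, 161, 161 and 164 FPKM in TE7 (-0.20 ± 0.018 per hour, adjusted p = 0.029). It was lost in KYSE510 and stayed near its level in TE7. ATXN7L3B had 24.6, 18.5, 10.9 and 3.61 FPKM in KYSE510, against 17.4, 13.7, 12.1 and 10.5 FPKM in TE7 (-0.19 ± 0.023 per hour, adjusted p = 0.029). HAS3 stood at 9.99, 7.53, 5.19 and 2.88 FPKM in TE7, far below KYSE510 at 2 h (-0.18 ± 0.025 per hour, adjusted p = 0.0311). ITPKB, an inositol phosphate kinase, and OSGIN1 behaved likewise, at 23, 13.3, 6.99 and 1.54 FPKM and 48.2, 36.8, 20.9 and 4.56 FPKM in KYSE510, against 2.57, 1.83, 1.16 and 0.726 FPKM and 3.8, 3.26, 2.28 and 1.12 FPKM in TE7. On a log2(FPKM + 1) scale a gene that is low in one line has less room to fall there.

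Slopes above those of TE7 were led by PRIMPOL, a primase-polymerase, with 6.39, 6.87, 5.34 and 6.04 FPKM in KYSE510, against 9.24, 5.71, 4.34 and 0.738 FPKM in TE7 (0.24 ± 0.025 per hour, adjusted p = 0.029). HNRNPDL, an RNA-binding protein gene, had 222, 204, 179.9 and 96.6 FPKM in KYSE510, against 258, 197, 145 and 22.1 FPKM in TE7 (0.24 ± 0.035 per hour, adjusted p = 0.0311). It declined in both lines, and further in TE7. GNL2, a nucleolar GTPase, had 36, 46.6, 53.1 and 56.7 FPKM in KYSE510, against 50.2, 55.8, 48.4 and 25.9 FPKM in TE7 (0.16 ± 0.031 per hour, adjusted p = 0.0423), so that the last library was the highest in KYSE510 and the lowest in TE7.

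**Figure D5:**
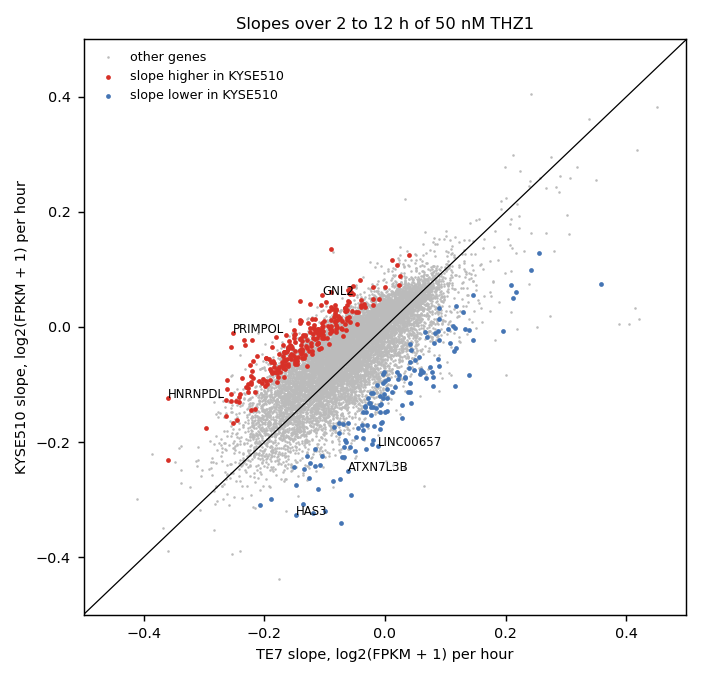
Slope of log2(FPKM + 1) per hour over 2 to 12 h in KYSE510 (vertical) against TE7 (horizontal) for 11459 genes, 1 library a time in each line; the diagonal marks equal slopes. The 254 genes with a higher slope in KYSE510 (red) and the 137 with a lower one (blue) lie off the diagonal on either side.

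A higher dose at 6 h gave a further point for KYSE510, with 1 library each at 200 nM and 50 nM and so no test. Across the tested genes the 200 nM library correlated with the 50 nM libraries of KYSE510 at r = 0.81 to 0.841. The KYSE510 DMSO library, which was left out, correlated with them at 0.81 to 0.853. The median over all 12685 genes was 0.66 lower at 200 nM than at 50 nM on the log2 scale. For genes that fell over time at 50 nM this difference was -0.75, for late falls -0.97 and for early falls 0. For genes that rose over time it was -0.57, and for late rises -0.24. FPKM of protein-coding genes summed to 321900 in the 200 nM library, against 459700 in the 50 nM library at 6 h. The ribosomal RNA sum described above was 41080 FPKM in the 200 nM library, against 6439 FPKM in the 50 nM library at 6 h. The part of either sum in the differences between doses, those of single genes included, was not tested. With 1 library a dose, an effect of dose cannot be told apart from other differences between the libraries. At 200 nM FOSL1 was at 10.6 FPKM, against 57.0 FPKM at 50 nM, and POLR2A was at 33.6 FPKM, against 109 FPKM. ID2 was at 326 FPKM, against 61.7 FPKM, and SRRT at 130 FPKM, against 122 FPKM. In FOSL1 the 200 nM level lay near that of 12 h at 50 nM, while POLR2A, which rose over time at 50 nM, was lower at the higher dose.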

How the data were processed

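Polyadenylated RNA of 2 esophageal cancer lines was sequenced on Illumina HiSeq from TruSeq libraries, per the labels. The authors aligned reads with STAR and computed expression with Cufflinks on hg19, per the submitters' processing notes; their versions, the settings and the annotation are not stated there. The authors deposited FPKM per gene with 95% bounds. Fragment totals are unknown, so no count test was run.

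FPKM were used as deposited, as log2(FPKM + 1), for genes with a mean of at least 1 FPKM over the 4 KYSE510 libraries; 24 genes with a quantification marked as failed were left out, a choice made after seeing the files. limma 3.58.1 in R 4.3.3 fitted a slope over hours, a squared term, and in 8 libraries the slope of KYSE510 minus that of TE7, each two-sided with Benjamini-Hochberg adjustment, variances following the mean. The fits were tested on simulated data. Shapes used a range of 1, a tolerance of 0.25 for steps against the direction and 0.5 beyond both ends for peaks and troughs. Other pseudocounts, filters, scalings and left-out libraries were tried. Promoters came from the RefSeq table of GRCh38.p14, where 8778 of 12671 symbols matched.

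The libraries, gene lists and tests were chosen with earlier results of these data known. Named genes had a mean of at least 5 FPKM and were the 12 largest slopes each way, the 6 widest of each shape, the 6 largest slope differences each way, up to 4 of each list by size of change, POLR2A, CDK7, CDK12, CDK13 and the super-enhancer genes; only some of these are described. FOSB, EGR1, FOSL2, JUND, KLF4, IER2, IER3, FOS, DUSP6, SPRY2, CCNT2, SUPT5H, MED7, MED13, BRD2, KLF5, KRT5, KRT8, KRT13, BCL2L11, MDM2, GADD45B, XRCC2, CRY1, SNHG15, TRA2B, NOP56, NPM1, GAPDH and HSPA5 were chosen after their values were seen. Results on some genes are not reported here.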

Additional observations from a re-analysis of the deposited data

Results flagged for a closer look

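The slopes of 18 described genes differed between KYSE510 and TE7 by the limma test of the difference itself (KYSE510 minus TE7, log2 per hour). With log2 hours, or without the 4 h or the 6 h libraries, 0 genes passed this test. Some of the 18 genes were chosen by this same test, so passing it adds no support for them. Those lower in KYSE510 were ITPKB (-0.22), OSGIN1 (-0.20), LINC00657 (-0.20), TNFSF9 (-0.19), ATXN7L3B (-0.19), HAS3 (-0.18), BIK (-0.17), CDKN1A (-0.13), MEPCE (-0.11) and FOSL2 (-0.091). TNFSF9, a costimulatory ligand, had 28.7, 16.6, 11.7 and 3.49 FPKM at 2, 4, 6 and 12 h in KYSE510, against 1.06, 1.61, 1.49 and 0.378 FPKM in TE7.

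Those higher in KYSE510 were PRIMPOL (0.24), HNRNPDL (0.24), FAM173B (0.17), TMEM18 (0.16), UTP14A (0.16), GNL2 (0.16), E2F1 (0.13) and SNHG15 (0.086). FAM173B, a mitochondrial methyltransferase gene, had 22.2, 21.1, 19.2 and 11.6 FPKM in KYSE510, against 26.3, 21.6, 14.3 and 3.73 FPKM in TE7. TMEM18 had 27.8, 31.8, 37.4 and 37.9 FPKM in KYSE510, against 22.5, 25.1, 23.1 and 9.89 FPKM in TE7. UTP14A, a ribosome biogenesis gene, had 10.6, 12.7, 12.8 and 9.91 FPKM in KYSE510, against 23.6, 21.3, 16.8 and 6.41 FPKM in TE7. The lines differ in medium and in their share of mitochondrial transcripts at 50 nM, and the part of either in these differences was not tested.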

How the results depend on the processing

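The slopes of 121 genes of the text and plots were fitted under 17 other settings, some of which hardly differ from the main one. Only 66 of the 121 genes stayed on their side of the threshold under all of them. Counted as pairs of gene and setting, 1925 stayed on their side of the threshold. Another 79 pairs lost their call, 29 of them with no filter, and 45 gained one. Among slopes called with the settings above 1 turned, that of CDK7 without the 12 h library (0.013 per hour, against -0.082 with all libraries and -0.11 without the 2 h library). Changes of sign in slopes without a call there were not counted as turns. Without the 12 h library BRD2 went from -0.0075 to 0.13 per hour and JUNB from 0.14 to -0.23. Without the 2 h library JUN went from -0.069 to 0.062 per hour. The causes were not tested. Median-of-ratios scaling gave 3650 genes that rose, 3446 that fell, 1174 with curvature, 284 with a slope lower than in TE7, 1655 falling and 893 rising shapes and 85 troughs; upper-quartile scaling gave 2972 that rose, 371 with a lower slope, 2032 falling and 496 rising shapes and 85 troughs. Equal sums of FPKM gave 707 that rose and 1093 with a slope higher than in TE7. No filter gave 836 that rose, 3440 that fell, 0 with curvature and 65 peaks. Without a mean trend 1009 genes had curvature, and with log2 hours 0 slopes were higher and 0 lower than in TE7. A pseudocount of 0.1 gave 79 peaks and 132 troughs. A pseudocount of 5 gave 1117 falling and 67 rising shapes, 13 peaks and 10 troughs; a mean of at least 5 FPKM gave 1859, 91, 19 and 20, and a range of at least 1.5 gave 1298, 57, 18 and 24. Leaving out a library gave 723 to 1324 genes that rose and 3013 to 5828 that fell, and leaving out a time in both lines gave 0 to 968 slopes higher and 0 to 307 lower than in TE7. No paired analysis was possible because each line, dose and time is 1 library. The authors' bounds for single genes are not printed here, so low genes such as EGR3 at 12 h are shown without an interval.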
